A study of Mus musculus with 6 samples.

Results

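The type 1 axis of T cells was described here by 10 genes: the cytokine gene Ifng, the transcription factor genes Tbx21 (T-bet), Eomes and Stat4, and the receptor genes Il12rb1, Il12rb2, Il18r1, Il18rap, Ifngr1 and Ifngr2. The members were the probe sets (groups of short array probes for 1 transcript) whose only gene symbol in the array's annotation was one of these. They were 13 of 45037 probe sets, array controls left out, and all 10 genes were measured, 7 of them by 1 probe set and 3 by 2.

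The samples were 3 arrays of CD8aa Tregs (line 2D11, replicates 1, 2 and 4) and 3 arrays of OT-1 T cells (line OvacD8, replicates 1, 2 and 3), all of mouse. CD8aa Tregs are described as regulatory T cells that respond through Qa-1 (class Ib MHC), and their name refers to the homodimer of the CD8 alpha chain. The T cell receptor of OT-1 mice is a transgene specific for ovalbumin, and these cells are labelled CD8aa+TCRab+. Lines of both groups were kept with their own antigen, antigen-presenting cells and IL-2, and the source is called a T cell clone. Each group may therefore be repeated samples of 1 clone, the p-values cover no more than the spread between such samples, which may be technical, and strain, age and time after stimulation are not given in the sources used here.

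In type 1 immunity, IL-12 binds a receptor made of the Il12rb1 and Il12rb2 chains and activates STAT4, while IL-18 binds the Il18r1 and Il18rap chains and signals through MyD88. Both signals raise interferon gamma in T cells and NK cells that express T-bet or its relative Eomes. Interferon gamma acts on cells that carry the Ifngr1 and Ifngr2 chains, where it sets off a broad antiviral and antigen presentation response. In CD8 T cells T-bet and Eomes also act on genes of the cytotoxic programme.

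Values are log values, of a base that is not stated and was taken as 2 from their range, from which each probe set's median over the 6 arrays had been subtracted, so they give differences between arrays and no levels. Levels cannot be compared between genes, and a gene near background in both groups cannot be told from one that is expressed equally. The defining T cell markers could thus be compared but not shown to be present, and they were not all even across the arrays. Cd3e, with the narrowest range of those measured, ran from -0.25 to 0.07. Cd3d ran from -0.37 on CD8aa Treg replicate 4 to 0.69 on OT-1 replicate 3. Cd3g stood at -0.73 on OT-1 replicate 1 and between -0.05 and 0.10 on the other arrays. Cd8b1, the CD8 beta chain, differed by -2.36 ± 0.11 (SE, adjusted p = 0.00093). In bulk cultures, fewer cells of a type and less RNA per cell cannot be told apart.

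The OT-1 arrays were not alike. Over probe sets spanning at least 0.1, Pearson's r was 0.61 to 0.668 among the CD8aa Treg arrays, 0.856 between OT-1 replicates 2 and 3, and 0.293 and 0.343 between these and OT-1 replicate 1. The poly-A controls, bacterial transcripts added to follow labelling, averaged -0.11, 0.11 and 0.82 on CD8aa Treg replicates 1, 2 and 4, and 0.49, -1.58 and -2.39 on OT-1 replicates 1, 2 and 3. The widest gap in these means put OT-1 replicate 1 with the CD8aa Tregs. Differences of the members are therefore given over all arrays, without OT-1 replicate 1, and with the poly-A split as a term of the fit, and those of other genes over all arrays, with the other fits where they end or make a call. Once OT-1 replicate 1 is left out, each group lies on its own side of the split, and group and split cannot be told apart. In the fit with the split as a term, OT-1 replicate 1 is the single array that sets OT-1 T cells against CD8aa Tregs, and its spread is assumed to equal that of the others.

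Over all arrays Tbx21 was lower in CD8aa Tregs and the other 9 genes gave no call. Tbx21 passed at an adjusted p under 0.05, on the lower side, where 3.37% of all 18193 genes passed, and 0 members passed on the higher side, where 3.3% of genes did (limma). An unadjusted p under 0.05 was found for 5 members, all 5 lower, where 9.09% of all genes were lower and 10.8% higher at that threshold. With 10 members, 1 call is too few to set apart from that background. The groups did not overlap in 5 members, Tbx21, Il12rb1, Il12rb2, Il18rap and Ifngr1, each lower in CD8aa Tregs, against 10.7% of all genes. The median difference of the 10 members was -0.75, beside 0.01 over all genes.

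**Figure D1:**
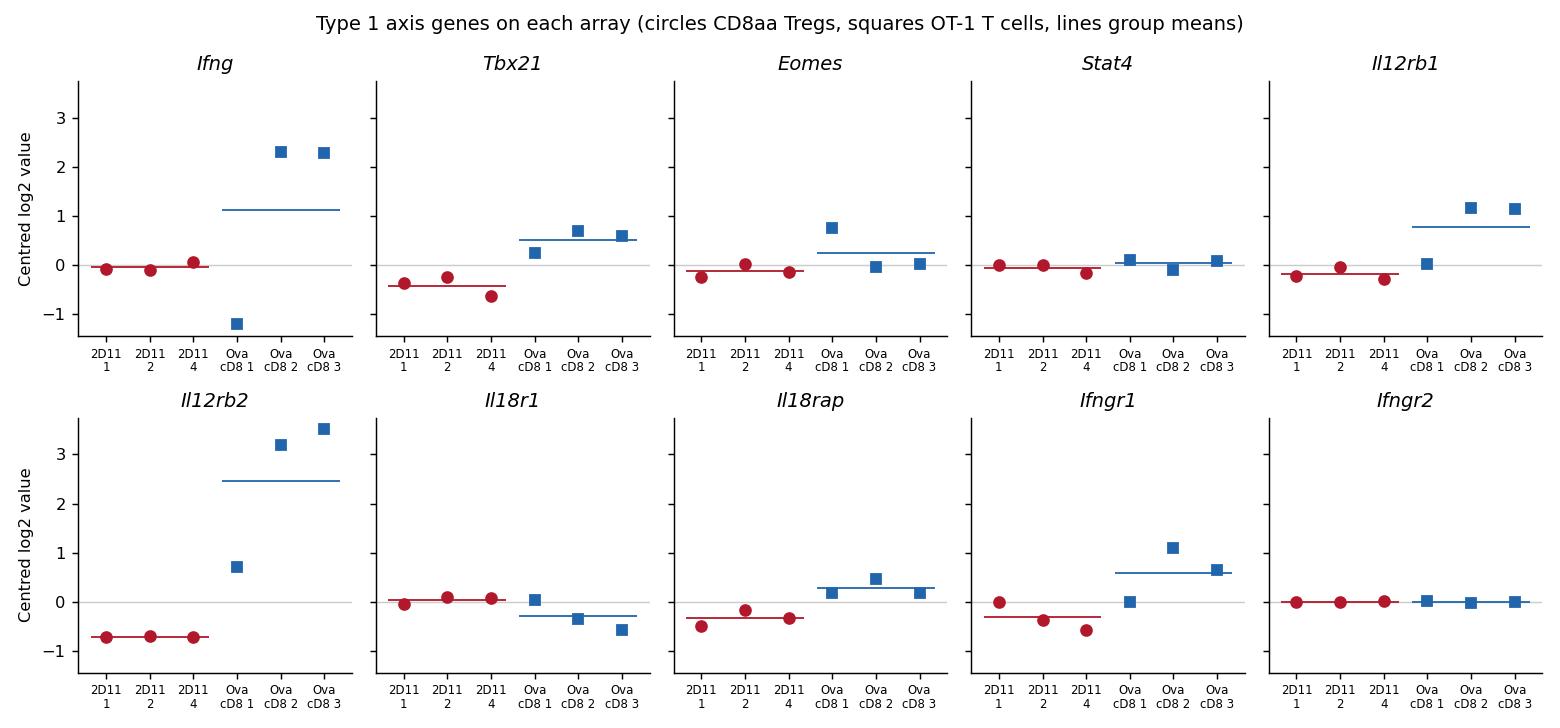
Centred log2 value (vertical axis) of each of the 10 type 1 axis genes on each array, with CD8aa Tregs (2D11) as circles at the left, OT-1 T cells (OvacD8) as squares at the right, and lines at the group means. Il12rb2 ran from -0.72 to 3.51, Ifng lay at -1.20 on OvacD8 replicate 1, below every other array, and Ifngr2 was flat.

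Ifng encodes interferon gamma, the effector cytokine of the axis. Its single probe set stood at -0.07, -0.09 and 0.07 on CD8aa Treg replicates 1, 2 and 4, and at -1.20, 2.30 and 2.28 on OT-1 replicates 1, 2 and 3. The CD8aa Treg arrays thus lay close together in the middle, OT-1 replicates 2 and 3 lay above them, and OT-1 replicate 1 lay below all of them. OT-1 replicate 1 was 1.17 lower than the CD8aa Treg mean and differed by -3.50 from the mean of OT-1 replicates 2 and 3. The group means were -0.03 ± 0.09 in CD8aa Tregs and 1.13 ± 2.02 in OT-1 T cells (SD, n = 3 each).

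The difference in Ifng over all arrays, -1.16 ± 1.04 (SE), did not pass (adjusted p = 0.711), and its 95% confidence interval ran from -3.85 to 1.53. Without OT-1 replicate 1, Ifng was lower in CD8aa Tregs by a difference of -2.32 ± 0.06, a 5.0-fold difference (adjusted p = 0.000357). The array left out there is the one that departs from its group in Ifng, so the small p-value follows from that choice. Leaving out any other single array gave no call, at differences of -1.21 to -0.57 and limma adjusted p of 0.791 to 0.9997. With the poly-A split as a term, the difference turned to 1.17 ± 0.07 (adjusted p = 0.00541), which restates the low value of OT-1 replicate 1. The direction of the Ifng difference in these samples therefore depends on which OT-1 array is set against the CD8aa Tregs.

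The gene lies at chr10:118441046-118445894 on the + strand of GRCm38.p6, and the bases before its start are shown because Ifng is the output of the axis. In them, capitals mark letters that match TTCNNNGAA, the spaced palindrome that STAT dimers recognise, searched on both strands. The match stood 240 bases before the start, and 7.02% of 32851 RefSeq promoter windows of 250 bases hold at least 1 such match. TCACAC, the core letters of T-box sites, which 12.3% of the windows hold on either strand, did not occur in this window. These letters are a description and show no binding.
Ifng, chr10:118440796-118441045, + strand: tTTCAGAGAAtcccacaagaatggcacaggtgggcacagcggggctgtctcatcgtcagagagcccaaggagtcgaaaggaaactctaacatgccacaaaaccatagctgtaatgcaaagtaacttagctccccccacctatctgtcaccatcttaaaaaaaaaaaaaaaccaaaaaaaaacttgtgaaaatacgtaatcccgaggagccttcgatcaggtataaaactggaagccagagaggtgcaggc

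Tbx21 encodes T-bet, the T-box factor that defines type 1 lymphocytes. It stood at -0.36, -0.25 and -0.63 on CD8aa Treg replicates 1, 2 and 4, and at 0.25, 0.69 and 0.59 on OT-1 replicates 1, 2 and 3. Every CD8aa Treg array lay below every OT-1 array, and OT-1 replicate 1 was the lowest of its group. Tbx21 was 1.90-fold lower in CD8aa Tregs, at -0.92 ± 0.16 on the log2 scale (SE, 3 arrays in each group, limma adjusted p = 0.0384). Leaving out OT-1 replicate 1 gave -1.05 (adjusted p = 0.0131). Leaving out any one of the other 5 arrays (CD8aa Treg replicates 1, 2 and 4, OT-1 replicates 2 and 3) ended the call, at differences of -1.01 to -0.81 and adjusted p of 0.0896 to 0.133. The poly-A split as a term ended it too (-0.66, adjusted p = 0.121).

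Eomes, the second T-box factor of CD8 T cells, followed another order of arrays. Its mean over 2 probe sets stood at -0.25, 0.02 and -0.15 on CD8aa Treg replicates 1, 2 and 4, and at 0.76, -0.04 and 0.02 on OT-1 replicates 1, 2 and 3. OT-1 replicate 1 was high, and the other OT-1 arrays lay within the range of the CD8aa Tregs. The difference of -0.37 ± 0.24 did not pass (adjusted p = 0.551, 95% interval -0.99 to 0.25). It was -0.11 without OT-1 replicate 1 (adjusted p = 0.595) and -0.88 with the poly-A split as a term (adjusted p = 0.0281). The probe sets differed by -0.56 (1426001_at) and -0.18 (1435172_at), and for the first of them the groups did not overlap.

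The 2 T-box genes thus separated OT-1 replicate 1 from its group in opposite ways. The centred value of Tbx21 minus that of Eomes was -0.11, -0.27 and -0.49 on CD8aa Treg replicates 1, 2 and 4. On OT-1 replicates 1, 2 and 3 it was -0.51, 0.73 and 0.57. On this measure OT-1 replicate 1 lay just below the lowest CD8aa Treg array, and OT-1 replicates 2 and 3 lay above all other arrays.

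Stat4, the transcription factor activated by IL-12, varied little. It stood at 0.00, 0.00 and -0.15 on CD8aa Treg replicates 1, 2 and 4, and at 0.11, -0.09 and 0.09 on OT-1 replicates 1, 2 and 3. The groups overlapped, and the difference of -0.09 ± 0.07 did not pass (adjusted p = 0.694, 95% interval -0.28 to 0.10). It was -0.05 without OT-1 replicate 1 (adjusted p = 0.767) and -0.16 with the poly-A split as a term (adjusted p = 0.604).

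Of the receptors, Il12rb2, the chain that binds STAT4 and that T-bet is known to raise, had the widest range of all members. It stood at -0.71, -0.70 and -0.72 on CD8aa Treg replicates 1, 2 and 4, and at 0.70, 3.18 and 3.51 on OT-1 replicates 1, 2 and 3. The CD8aa Treg arrays were almost identical, OT-1 replicate 1 lay 1.41 above their mean, and OT-1 replicates 2 and 3 lay higher still. The difference of -3.18 ± 0.80, or 9.04-fold, did not pass over all arrays (adjusted p = 0.10, 95% interval -5.22 to -1.13). The SD was 0.01 in CD8aa Tregs and 1.54 in OT-1 T cells. Without OT-1 replicate 1 it was -4.06 ± 0.11, or 16.7-fold (adjusted p = 0.000373). With the poly-A split as a term it was -1.41 ± 0.13 (adjusted p = 0.0132).

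Il12rb2 lies on the - strand of chr6 at 67285986 to 67376293 (GRCm38.p6). The bases just outside the annotated gene are shown because this gene had the largest difference of the members, again with letters matching TTCNNNGAA in capitals. The window of 250 bases before its listed start also held 1 TCACAC, which lies inside the annotated gene and is not shown. Of the 9 members with a promoter in the RefSeq table, which had 12 windows between them, Ifng, Il12rb2 and 1 of the 3 windows of Il18r1 held TTCNNNGAA. TCACAC occurred in the window of Il12rb2 alone.
Il12rb2, chr6:67376294-67376438, - strand: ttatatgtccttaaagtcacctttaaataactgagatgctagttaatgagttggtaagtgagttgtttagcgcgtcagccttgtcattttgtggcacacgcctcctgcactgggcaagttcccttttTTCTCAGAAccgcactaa

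Il12rb1, the receptor chain shared by IL-12 and IL-23, also lay highest on OT-1 replicates 2 and 3, over a smaller range. It stood at -0.22, -0.03 and -0.29 on CD8aa Treg replicates 1, 2 and 4, and at 0.03, 1.16 and 1.13 on OT-1 replicates 1, 2 and 3. OT-1 replicate 1 lay just above the highest CD8aa Treg array. The difference of -0.95 ± 0.34 did not pass (adjusted p = 0.212), passed without OT-1 replicate 1 (-1.33 ± 0.09, adjusted p = 0.00282), and was -0.21 with the poly-A split as a term (adjusted p = 0.464).

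The 2 chains of the IL-18 receptor had differences of opposite sign. Il18rap, the signalling accessory chain, stood at -0.49, -0.16 and -0.33 on CD8aa Treg replicates 1, 2 and 4, and at 0.18, 0.46 and 0.19 on OT-1 replicates 1, 2 and 3. The groups did not overlap, and the OT-1 arrays were alike. Its difference was -0.60 ± 0.12 (adjusted p = 0.0559), -0.65 without OT-1 replicate 1 (adjusted p = 0.0483), and -0.51 with the poly-A split as a term (adjusted p = 0.224). The probe set 1456545_at of Il18rap was the one member among 13 that passed over all probe sets (-0.39 ± 0.06, adjusted p = 0.0488), where 2.05% passed on the lower side. The other, 1421291_at, was at -0.82 ± 0.18 (adjusted p = 0.0974). The groups did not overlap in 7 member probe sets, each lower in CD8aa Tregs, against 8.54% of all probe sets.

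Il18r1, the ligand-binding chain, stood at -0.04, 0.09 and 0.08 on CD8aa Treg replicates 1, 2 and 4, and at 0.04, -0.36 and -0.58 on OT-1 replicates 1, 2 and 3. OT-1 replicate 1 lay within the range of the CD8aa Tregs, and the other OT-1 arrays lay below it. At 0.34 ± 0.17 the difference gave no call (adjusted p = 0.373). Il18r1 was higher in CD8aa Tregs once OT-1 replicate 1 was left out, by 0.51 ± 0.09 (adjusted p = 0.0273), and with the poly-A split as a term the difference was 0.001 (adjusted p = 1). Il18r1 and Il18rap are neighbours on chr1, at 40465552-40500854 and 40515362-40551707. Il1rl2 before them and Slc9a4 after them spanned 0.05 and 0.03 over the 6 arrays.

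Of the chains that receive interferon gamma, Ifngr1, the ligand-binding chain, stood at 0.00, -0.37 and -0.57 on CD8aa Treg replicates 1, 2 and 4. On OT-1 replicates 1, 2 and 3 it stood at 0.00, 1.10 and 0.64. CD8aa Treg replicate 1 and OT-1 replicate 1 lay side by side, so the groups were separate by a very small margin. The difference of -0.89 ± 0.32 did not pass (adjusted p = 0.218). It passed without OT-1 replicate 1 (-1.19 ± 0.23, adjusted p = 0.0416) and was -0.31 with the poly-A split as a term (adjusted p = 0.879). Ifngr2, the accessory chain, spanned 0.02 over all arrays with a difference of 0.01 ± 0.02 (adjusted p = 0.915), and neither other fit gave a call (0.013, adjusted p = 0.757 without OT-1 replicate 1, and -0.0033, adjusted p = 1 with the poly-A split as a term). Its neighbour Ifnar1, a chain of the type I interferon receptor, spanned 0.67 and gave no call (0.16 ± 0.19, adjusted p = 0.787).

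Without OT-1 replicate 1, 7 of the 10 members passed, 6 lower (against 9.4% of all genes) and 1 higher (against 7.8%). With the poly-A split as a term 3 passed: Eomes and Il12rb2 lower (against 4.66% of genes) and Ifng higher (against 2.83%). Il12rb2 was the one member that passed on the lower side in both of these fits.

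**Figure D2:**
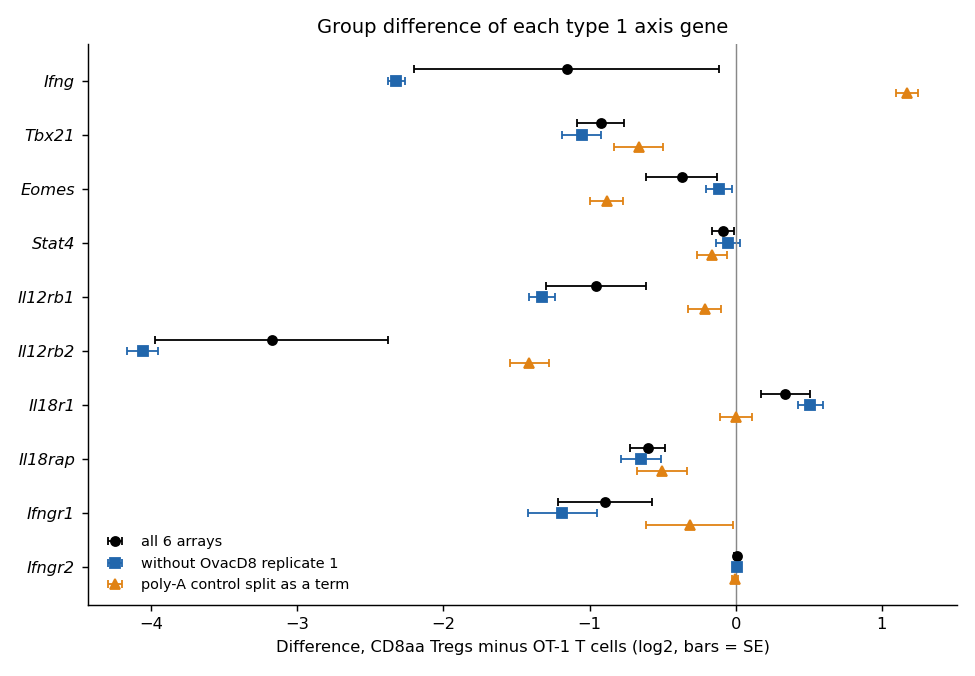
Difference of CD8aa Tregs minus OT-1 T cells for each member on the log2 scale (horizontal axis, bars are SE), over all 6 arrays (circles), without OvacD8 replicate 1 (squares) and with the poly-A control split as a term (triangles). Ifng lies at -1.16, -2.32 and 1.17 in these fits, while Tbx21 stays between -1.05 and -0.66.

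The cultures held antigen-presenting cells, and 6 macrophage and monocyte markers gave no single order of arrays. Of them 2, Lyz2 and Csf1r, were highest on OT-1 replicate 1, and 0 passed over all arrays (limma; 0 higher and 2 lower at an unadjusted p under 0.05). Without OT-1 replicate 1, 1 was higher in CD8aa Tregs (against 7.8% of all genes) and 2 were lower (against 9.4%). The higher one was Lyz2 (2.56, limma adjusted p = 0.036). Lyz2, the macrophage lysozyme gene, stood at 0.49, -0.49 and 0.59 on CD8aa Treg replicates 1, 2 and 4, and at 2.70, -1.91 and -2.82 on OT-1 replicates 1, 2 and 3. Csf1r, the M-CSF receptor gene, stood at -0.08 to 0.00 in CD8aa Tregs, and at 1.17, -0.01 and 0.00 on OT-1 replicates 1, 2 and 3. The mean of the 6 markers was -0.23 to -0.03 on the CD8aa Treg arrays, and 0.76, 0.34 and 0.23 on OT-1 replicates 1, 2 and 3. Cd68, in contrast, followed OT-1 replicates 2 and 3 (-0.71 to -0.48 on the CD8aa Treg arrays, and 0.48, 3.34 and 3.44 on OT-1 replicates 1, 2 and 3), as did Cd14, the LPS co-receptor gene (-0.35 to -0.20 on the CD8aa Treg arrays, and 0.20, 0.66 and 0.75 on OT-1 replicates 1, 2 and 3). Adgre1 spanned less than 0.1, and Itgam was highest on CD8aa Treg replicate 1 (0.19) and between -0.02 and 0.01 on the other arrays. The part of other cells in the values of OT-1 replicate 1 was not tested.

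**Figure D3:**
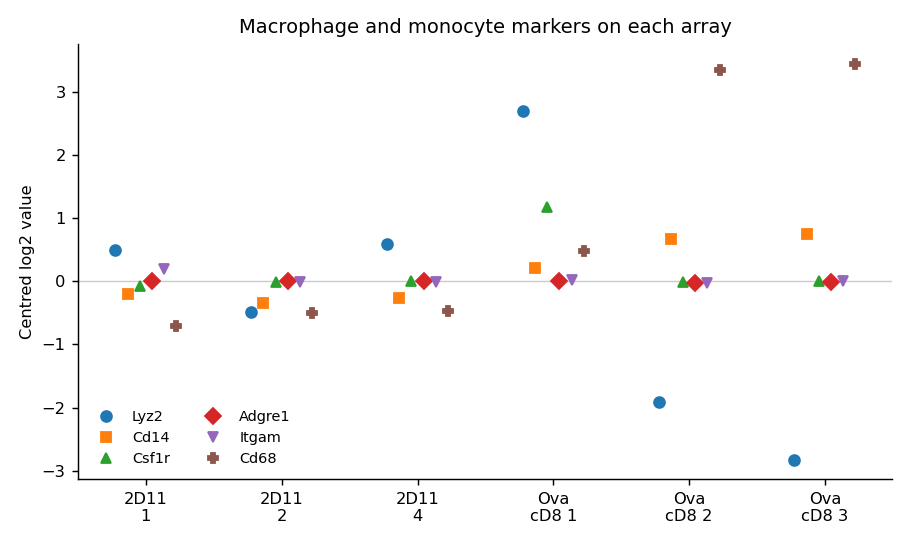
Centred log2 value (vertical axis) of 6 macrophage and monocyte markers on each array, CD8aa Tregs (2D11) at the left and OT-1 T cells (OvacD8) at the right. Lyz2 is at 2.70 and Csf1r at 1.17 on OvacD8 replicate 1, while Cd68 is at 3.34 and 3.44 on OvacD8 replicates 2 and 3.

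The other marker lists varied less. The mean of 4 measured NK cell markers was -0.14 to -0.09 in CD8aa Tregs and 0.13 to 0.17 in OT-1 T cells, but their median difference was 0.02. The gap between these means came from Klre1. Klre1, an NK receptor gene, was lower (-1.18 ± 0.08, adjusted p = 0.00225), while Ncr1 (0.01), Klra7 (0.04) and Klra8 (0.03) did not pass. The mean of 4 B cell markers stayed between -0.02 and 0.02, with Ms4a1 at 0.03 (adjusted p = 0.714), and 3 dendritic cell markers between -0.02 and 0.08, with Flt3 at 0.08 (adjusted p = 0.692). Of 8 measured T cell markers, Cd8b1 and Cd247, the CD3 zeta chain (-0.90 ± 0.11, adjusted p = 0.0151), were lower and 6 did not pass. Without OT-1 replicate 3, Cd247 did not pass (-0.88, adjusted p = 0.0666), nor without CD8aa Treg replicates 1 or 2 or OT-1 replicate 2. Cd3d did not pass over all arrays (-0.73, limma adjusted p = 0.0724) but was lower without OT-1 replicate 1 (-0.89, adjusted p = 0.00577). The difference of Cd3g was 0.29 over all arrays and 0.77 with the poly-A split as a term.

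Counts of the lists below stand beside the shares of all genes already given: 3.37% lower and 3.3% higher over all arrays, 9.09% and 10.8% at an unadjusted p under 0.05, and 9.4% and 7.8% without OT-1 replicate 1. With 7 to 21 genes a list, counts of 0 to 3 calls over all arrays set no list apart from these shares. Upstream of the factors, 2 of 13 measured genes of IL-12 and IL-18 signal transduction were lower and 0 were higher (0 higher and 4 lower at an unadjusted p under 0.05; median -0.25). Irak2, a kinase of the MyD88 pathway, stood at -0.79, -0.75 and -0.80 on CD8aa Treg replicates 1, 2 and 4, and at 0.75, 1.30 and 1.58 on OT-1 replicates 1, 2 and 3. It was lower by a difference of -1.99 ± 0.22 (adjusted p = 0.0115). Jak2, the kinase bound to the Il12rb2 chain, was lower by -0.32 ± 0.05 (adjusted p = 0.0255). Neither passed without any one of the 3 CD8aa Treg arrays, nor Irak2 without OT-1 replicate 2 (-1.94, adjusted p = 0.0637) or Jak2 without OT-1 replicate 3 (-0.31, adjusted p = 0.10). Tyk2, the partner of Jak2 at the IL-12 receptor, did not pass (-0.08, adjusted p = 0.797).

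The cytokines that drive the axis gave no call. Of 7 measured genes 0 passed in limma (0 higher and 1 lower at an unadjusted p under 0.05), with a median of -0.07. Il12a and Il12b, the subunits of IL-12, spanned less than 0.1. Il18 had the widest range, at -0.19, 0.00 and -0.43 on CD8aa Treg replicates 1, 2 and 4, and -0.01, 1.41 and 1.54 on OT-1 replicates 1, 2 and 3. Its difference was -1.19 (adjusted p = 0.248), and -1.68 without OT-1 replicate 1 (adjusted p = 0.00535).

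Among 11 measured relatives and partners of the receptors, 2 were lower and 0 higher (1 higher and 3 lower at an unadjusted p under 0.05; median -0.06). They were Il21r, the IL-21 receptor (-1.19 ± 0.20, adjusted p = 0.0376), and Il6st, the gp130 chain (-0.49 ± 0.09, adjusted p = 0.0476), whose 4 probe sets ran from -1.61 to 0.004. Without OT-1 replicate 2, Il21r did not pass (-1.10, adjusted p = 0.141), nor without OT-1 replicate 3 or CD8aa Treg replicates 2 or 4. Il6st passed in 1 of 6 fits with an array left out, the one without OT-1 replicate 1, and was at adjusted p = 0.162 without CD8aa Treg replicate 2 (-0.48). The poly-A split as a term ended the calls of Il21r (-1.09, adjusted p = 0.153) and Il6st (-0.36, adjusted p = 0.185).

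Of 21 measured transcription factors that act beside T-bet, 1 was higher and 2 were lower (3 higher and 9 lower at an unadjusted p under 0.05). Their median was -0.0024 with the poly-A split as a term. Without OT-1 replicate 1, 3 were higher (against 7.8% of all genes) and 6 lower (against 9.4%; median over all arrays -0.19, and -0.50 without that array). Ets1, a factor of T cell development that also takes part in Ifng expression, was higher in CD8aa Tregs. It stood at 0.67, 0.72 and 0.55 on CD8aa Treg replicates 1, 2 and 4, and at -0.41, -0.76 and -0.92 on OT-1 replicates 1, 2 and 3 (1.34 ± 0.14, adjusted p = 0.0106). Zeb2, a repressor induced by T-bet in effector CD8 T cells, was lower (-1.17 ± 0.17, adjusted p = 0.0245; probe sets from -2.43 to -0.15), as was Nfatc1 (-0.19 ± 0.03, adjusted p = 0.0201). Without OT-1 replicate 2, Zeb2 and Ets1 did not pass (-1.10, adjusted p = 0.101, and 1.31, adjusted p = 0.0591). Zeb2 passed in 1 of the 6 fits with an array left out, the one without OT-1 replicate 1. Ets1 also failed without CD8aa Treg replicates 1 or 2, and Nfatc1 without CD8aa Treg replicates 1 (-0.18, adjusted p = 0.0949) or 4 or OT-1 replicate 3.

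Of 14 measured genes known as targets of T-bet or Eomes, 2 were lower and 0 higher (2 higher and 6 lower at an unadjusted p under 0.05). The median was -0.59, and -0.06 with the poly-A split as a term. Ccl5, the chemokine RANTES, was lower by -0.88 ± 0.07 (adjusted p = 0.00522) and passed in each fit with an array left out. With the replicate number as a block, Ccl5 did not pass (limma adjusted p = 0.0751). Klrk1, the receptor NKG2D, was lower by -0.80 ± 0.13 (adjusted p = 0.0301), but not without OT-1 replicate 2 (-0.78, adjusted p = 0.124), OT-1 replicate 3 or CD8aa Treg replicate 2. With the poly-A split as a term Klrk1 did not pass either (-0.82, adjusted p = 0.106). Without OT-1 replicate 1, 7 of these 14 genes were lower (against 9.4% of all genes) and 1 was higher (against 7.8%).

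The response to interferon gamma showed 3 of 19 measured genes lower and 0 higher (0 higher and 6 lower at an unadjusted p under 0.05; median -0.09). H2-Ab1, a class II MHC chain, stood at -0.68, -0.51 and -0.77 on CD8aa Treg replicates 1, 2 and 4, and at 0.60, 1.35 and 1.63 on OT-1 replicates 1, 2 and 3 (-1.85 ± 0.29, adjusted p = 0.0294). The GTPase genes Gbp3 (-1.67 ± 0.25, adjusted p = 0.0261) and Gbp2 (-1.13 ± 0.14, adjusted p = 0.0151) were lower as well. Gbp2 stood at -0.44, -0.55 and -0.51 on CD8aa Treg replicates 1, 2 and 4, and at 0.92, 0.41 and 0.57 on OT-1 replicates 1, 2 and 3. The list gave no single order of the OT-1 arrays. Gbp2 and Gbp3 were highest on OT-1 replicate 1, the array lowest in Ifng. H2-Ab1, Psmb9 (-0.50, 0.25 and 0.30 on OT-1 replicates 1, 2 and 3) and Igtp (-0.29, 0.15 and 0.23) were lowest there. A link of these values to Ifng was not tested. Without OT-1 replicate 2, H2-Ab1 (-1.76, adjusted p = 0.121) and Gbp3 (-1.67, adjusted p = 0.111) did not pass. Gbp3 also lost its call with the poly-A split as a term (-1.71, adjusted p = 0.0945). Without CD8aa Treg replicate 2, Gbp2 did not pass (-1.11, adjusted p = 0.0704). H2-Ab1, Gbp3 and Gbp2 each also failed without CD8aa Treg replicates 1 or 4 and without OT-1 replicate 3, and H2-Ab1 failed without CD8aa Treg replicate 2 too. Cd74, the class II invariant chain, which was singled out after its values were seen, stood at -0.17 to 0.30 on the CD8aa Treg arrays, and at 2.15, -1.25 and -1.19 on OT-1 replicates 1, 2 and 3. Its difference was 0.20 over all arrays (limma adjusted p = 0.943) and 1.32 without OT-1 replicate 1 (adjusted p = 0.0122). With the poly-A split as a term the difference of Cd74 turned to -2.05. Of the 6 macrophage markers, Lyz2 and Csf1r were highest on OT-1 replicate 1, while Cd68 and Cd14 were lower there than on OT-1 replicates 2 and 3. The part of other cells in the class II values was not tested.

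The programmes that oppose type 1 fate gave no call. Of 10 measured genes 0 passed, none at an unadjusted p under 0.05, and the median was 0.01 (limma). Of them 7 spanned less than 0.1, among them Il4, Il17a and Foxp3. Bcl6, the factor of follicular helper cells, had the widest range (0.73, adjusted p = 0.33) and was higher in CD8aa Tregs without OT-1 replicate 1 (1.08, adjusted p = 0.0172).

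**Figure D4:**
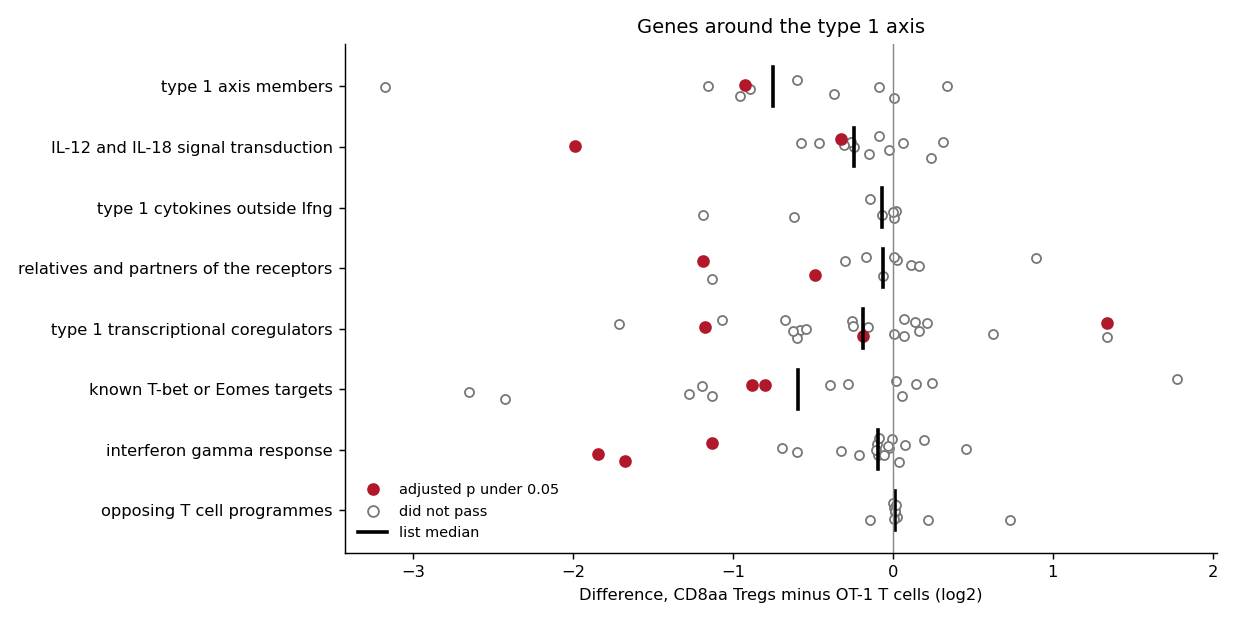
Difference of CD8aa Tregs minus OT-1 T cells (horizontal axis, log2) for each measured gene of the members and of 7 lists around the axis, filled where the adjusted p was under 0.05, with the list median as a bar. The members' median lies at -0.75 and that of the T-bet or Eomes targets at -0.59, while the opposing programmes lie at 0.01.

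The genes whose values over the 6 arrays were nearest to Ifng were found by the root mean square difference after each gene's own mean was subtracted. They were Dusp1, a MAP kinase phosphatase (0.132), Aldoc, a glycolytic aldolase (0.185), Ifi27l2a (0.191), Ero1a, an oxidase of the endoplasmic reticulum (0.242), and Ndrg1 (0.249). All 5 were low on OT-1 replicate 1, from -1.36 (Dusp1) to -0.63 (Ero1a), and at 2.21 to 2.73 on OT-1 replicates 2 and 3. The 3 genes nearest to Il12rb2 were Ptgr1 (0.164), Cd68 (0.165) and Usp18 (0.204).

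For Tbx21 the nearest were Cd247 (0.069), Cpne1 (0.071) and Rasa2 (0.085). The nearest to Il12rb1 were Igf2r (0.044), Hspa2 (0.064) and Ahnak (0.072), and to Ifngr1 Tpgs1 (0.108), Pfkfb3 (0.118) and Lpcat4 (0.122). For Eomes they were Ciart (0.079), Brf1 (0.080) and Zfyve16 (0.082), each highest on OT-1 replicate 1. The 6 points of each comparison share their arrays, their lines and the poly-A split, so nearness is a description.

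**Figure D5:**
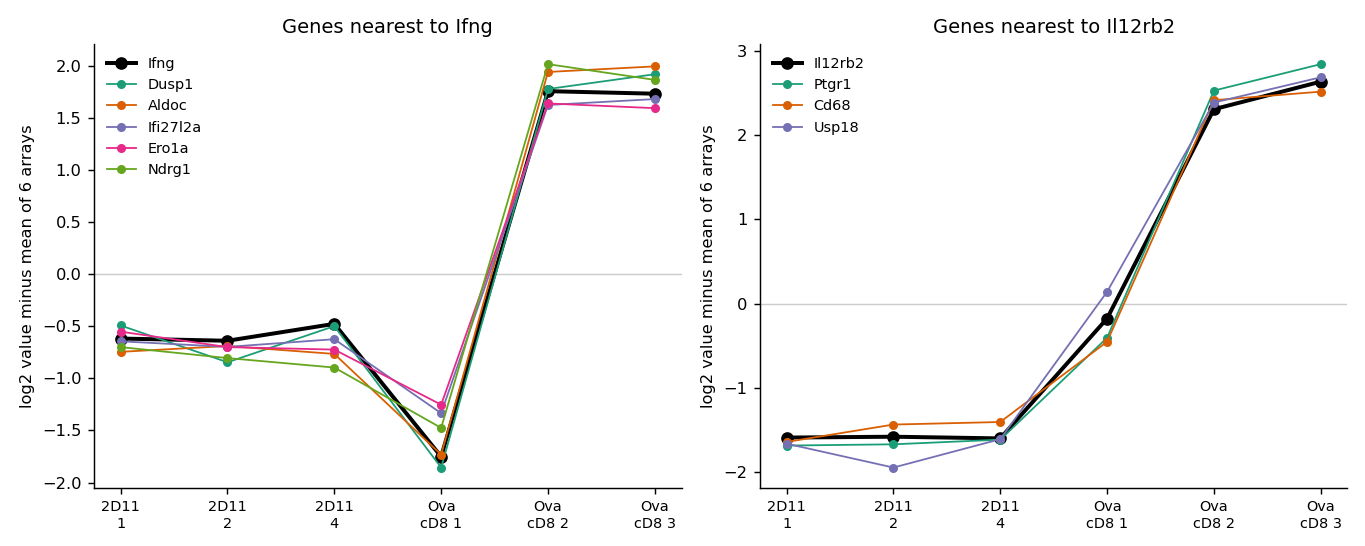
Value on each array minus the gene's mean over the 6 arrays (vertical axis, log2) for Ifng with its 5 nearest genes and Il12rb2 with its 3 nearest, CD8aa Tregs (2D11) at the left and OT-1 T cells (OvacD8) at the right. The genes near Ifng dip on OvacD8 replicate 1, whereas those near Il12rb2 lie there between the CD8aa Tregs and OvacD8 replicates 2 and 3.

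Of the measured genes next to the members on the chromosome that are no members themselves, Arrdc2 and Nab1 passed over all arrays. The measured neighbours of Ifng, Mdm1 and Dyrk2, spanned 0.24 and 0.66 and did not pass over all arrays (adjusted p = 0.847 and 0.611). Those of Tbx21, Osbpl7 and Tbkbp1, did not pass either (adjusted p = 0.207 and 0.413), nor did Golga4 beside Eomes (0.56) and Serbp1 beside Il12rb2 (0.447). Dyrk2 (0.50, limma adjusted p = 0.0135) and Serbp1 (0.42, adjusted p = 0.0369) were higher in CD8aa Tregs once OT-1 replicate 1 was left out. Next to Il12rb1, Arrdc2 was higher in CD8aa Tregs (1.79 ± 0.31, adjusted p = 0.0386), opposite in sign to Il12rb1. Mast3, on the other side of Il12rb1, did not pass over all arrays (0.58, adjusted p = 0.162). It was higher in CD8aa Tregs without OT-1 replicate 1 (0.73, limma adjusted p = 0.0462). Arrdc2 passed in 1 of 6 fits with an array left out, the one without OT-1 replicate 1, and was at 1.76 (adjusted p = 0.147) without OT-1 replicate 2 and 1.21 (adjusted p = 0.0849) with the poly-A split as a term. Next to Stat4, Nab1 was lower (-0.40 ± 0.03, adjusted p = 0.00376) and passed in all 6 such fits. Gm17767, on the other side of Stat4, spanned 3.38 and did not pass over all arrays (-1.92 ± 0.96, adjusted p = 0.384). Without OT-1 replicate 1, Gm17767 was lower (-2.98, limma adjusted p = 0.00137). Gm17399 beside Eomes, Igk beside Il12rb2, Olig3 and Il22ra2 beside Ifngr1, and Tmem50b beside Ifngr2 passed neither over all arrays nor without that array.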

How the data were processed

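Per the labels' protocols, total RNA of 6 mouse T cell samples was amplified (Nugen Ovation) and biotin-labelled. RMA, in a version not stated, made the values, per the submitters' processing notes. The authors deposited them on a log scale, used here as log2, with the median of each probe set over the arrays set to 0 (within 5e-07). No source used here states the base, but 1 probe set ranged over 11.4, which exceeds what natural logs of 16-bit intensities allow (11.1).

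Groups came from the titles. A gene was the mean of all probe sets with its symbol as their only one (34945 probe sets, 18193 genes); symbols agreed by Entrez identifier with RefSeq of GRCm38.p6, which also gave coordinates and promoters. Groups were compared with limma 3.58.1 in R 4.3.3 by a two-sided test, with Benjamini-Hochberg adjustment over all genes, or over all 45037 probe sets, and 0.05 as the threshold. The fit was checked on simulated arrays with independent noise of equal spread in both groups. That check does not cover an array that departs from its group, as OT-1 replicate 1 does. RMA draws dim probe sets together, which understates differences near background, and the number of arrays limits precision.

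The members, lists and alternatives were chosen with earlier results of these data known. The text names every member, up to 3 passing genes of each list by size (or the widest where none passed), the nearest genes by pattern and the chromosomal neighbours. Cd3e, Ncr1, Adgre1, Csf1r and other genes outside this rule are given as marker or pathway context. Replicate numbers 1 and 2 occur in both groups, but same-numbered arrays deviated together at -0.04 and 0.214, so they were not paired.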

Additional observations from a re-analysis of the deposited data

How the results depend on the processing

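In limma, 16 alternative settings were tried, and the split of the poly-A controls at their widest gap was added after the data were seen. The count of all genes passing, 1214, ran from 523 to 3129 with 1 array left out (highest without OT-1 replicate 1), was 202 with the replicate block and 7391 with array weights, whose estimation stopped before it converged. The count of member genes passing, 1, ran from 0 to 7 with 1 array left out (7 without OT-1 replicate 1). It was 0 with the replicate block, with arrays centred on their medians and with the poly-A controls above or below zero as a term (3 to 5 had an unadjusted p under 0.05), and 3 with the poly-A split at its gap or with genes spanning at least 0.1. With array weights it was 7. The count of member probe sets passing, 1, ran from 0 to 6 with 1 array left out. It was 0 with the replicate block, median centring, robust empirical Bayes, the poly-A controls above or below zero, or probe sets ending in _x_at or _s_at left out (4 to 7 at an unadjusted p under 0.05). It was 2 with the poly-A split at its gap, 4 with a span of at least 0.1 and 9 with array weights. The difference reversed for Ifng (1.17) and Ifngr2 (-0.0033) with the poly-A split at its gap, a fit that by construction sets the CD8aa Treg mean against OT-1 replicate 1 alone. Of 159 differences of single members under these settings, 132 kept their direction and side of the threshold, 9 no longer passed, 16 newly passed in the same direction and 2 reversed, of which that of Ifng passed. The 9 were all of Tbx21, whose adjusted p was 0.12 with the replicate block.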
